A study of Homo sapiens with 9 samples.

Results

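The response of COR-L279 cells to the lower of 2 doses of JQ1 was read from 6 of the 9 libraries of the series. COR-L279, an established line of human small cell lung cancer (SCLC), is wild type per the labels, which place it in SCLC-N, the class with high NEUROD1. One group of 3 libraries came from cells kept for 24 h with 0.5 µM JQ1, and the other group of 3 from cells kept for 24 h with DMSO, the vehicle. The members were chosen by these treatment labels alone. The labels call the libraries biological replicates and say nothing further of how they were made separate, so the p-values measure the spread between these libraries. The other 3 libraries, from cells at 1.5 µM JQ1, entered the fit for its estimate of the spread and are named only where a result touches them.

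JQ1 is a small molecule that binds the acetyl-lysine pocket of the BET bromodomain proteins and displaces them from acetylated chromatin. BET proteins help to bring the elongation factor P-TEFb, a kinase made of CDK9 and a cyclin T, to genes where RNA polymerase II has paused, and genes fed by large clusters of enhancers are known to be sensitive to their loss. P-TEFb is held inactive in a particle of the 7SK RNA, LARP7, MEPCE and a HEXIM protein, and HEXIM1 is in wide use as a marker of BET inhibition. SCLC cells of the neuroendocrine kind make granins, peptide hormones and synaptic proteins under neurogenic transcription factors.

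Expression is given as the normalized counts that the authors deposited, which are gene counts divided by 1 size factor per library. A fold change is therefore relative to the bulk of genes: the labels name no spike-in, and in bulk RNA fewer expressing cells and less RNA per cell cannot be told apart. Genes were called higher or lower at a Benjamini-Hochberg adjusted p under 0.05 in limma, a linear model with moderated variances, on log2(normalized count + 1). That scale shrinks changes where counts are low. Every gene described below as one that rose or fell passed this test with its groups of 3 not overlapping, unless a sentence says otherwise, and values in a series follow the replicate numbers 1 to 3.

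The 6 libraries held 60721187 to 88482001 reads in genes, of which mitochondrial transcripts took 3.22% to 3.74%. NEUROD1, the marker of the labelled subtype, stood at 264 to 363 FPKM (fragments scaled to transcript length and library size). INSM1, a marker of neuroendocrine cells, stood at 326 to 368 FPKM, and POU2F3 of the tuft-like subtype reached at most 0.10 FPKM. The non-neuroendocrine markers were divided. CD44 stood at 79.9 to 83.4 FPKM in DMSO and 37.3 to 40 at 0.5 µM, and VIM at 10.1 to 10.7 and 4.64 to 5.39. YAP1 and REST reached at most 0.59 and 0.15 FPKM. Of the markers of other cells, 4 of 10 for leukocytes (CD3D, FCGR3A and PTPRC among them) and 3 of 7 for endothelium (EMCN, TEK and VWF) were listed at 0 in all 6 libraries. The leukocyte markers summed to 0.80 to 1.11 FPKM in DMSO and 0.26 to 0.72 FPKM at 0.5 µM, and the endothelial ones to 1.44 to 1.51 and 0.53 to 0.64 FPKM. The 10 fibroblast markers summed to 74.4 to 76.4 FPKM in DMSO and 58.3 to 73.0 FPKM at 0.5 µM, nearly all of it THY1 and COL1A2. LUM, COL3A1 and DCN from that list were high in 0.5 µM replicate 3 alone. The part of these markers in the results was not tested.

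2 of the 3 libraries at 0.5 µM stood apart from their group. A gene was counted as set apart in a library if it lay at least 1 log2 unit above, or at least 1 below, both other libraries of its group, with a group mean of at least 20 normalized counts. The 3 DMSO libraries held 8 to 17 genes set above and 24 to 28 set below. Replicate 1 at 0.5 µM held 28 and 43, replicate 2 held 38 and 397, and replicate 3 held 70 and 36. Pairs of DMSO libraries had 148 to 174 genes that differed by 2-fold or more, and pairs of 0.5 µM libraries 304 to 785.

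The genes that were low in replicate 2 were mostly of 1 kind. Of its 397 genes set below, 273 (68.8%) were processed pseudogenes, which are reverse-transcribed copies of messenger RNAs, against 1 to 3 such genes in each of the other 5 libraries. Processed pseudogenes took 0.382% of the reads in replicate 2, 0.491% and 0.468% in replicates 1 and 3, and 0.519% to 0.548% in the DMSO libraries. Over all 1210 processed pseudogenes tested, 72 were called higher and 423 lower with a median log2 fold change of -0.44. Without replicate 2 these were 114 and 370 with a median of -0.20. More members were lower than higher in both fits, but the size of the median depended on replicate 2. The class is not taken up as a list below.

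The genes that were high in replicate 3 came mostly as a group shared with other libraries. Of its 70 genes set above, 52 were also at least 1 log2 unit higher in replicates 1 and 2 at 1.5 µM than in replicate 3 at that dose. The 52 summed to 1165, 1123 and 11665 normalized counts in the 3 libraries at 0.5 µM, against 2855 to 3190 in the DMSO libraries. H19, an imprinted noncoding RNA, had 70.97, 63.8 and 82.8 normalized counts in DMSO and 1.04, 8.22 and 1563 at 0.5 µM. SLC2A3, a glucose transporter, had 0, 1.56 and 0.941 and 0, 3.52 and 489. Replicate 3 was far above the other 5 libraries in both genes, and neither passed the test in limma. SLC2A3 did pass in edgeR (adjusted p = 0.0391) and DESeq2 (adjusted p = 0.0166), and H19 was called lower (adjusted p = 0.00149) when replicate 3 and the 2 libraries at 1.5 µM with high H19 were left out. PTN (a heparin-binding growth factor), GABRP (a GABA receptor subunit), the noncoding CTD-3126B10.1 and CYP19A1 (aromatase) had 241, 999, 127 and 126 normalized counts in replicate 3 and at most 4.70 in replicates 1 and 2. CTD-3126B10.1 is not among the 52 genes. Of the 70 genes, 12 were called between the groups, while 70.0% of all tested genes were called. The 70 were picked for a gap between treated libraries, which widens the spread that the test uses. The genes with the widest gaps on the other sides were mostly clone-named or read-through loci: AC005523.2, an antisense gene, had 91.3, 507 and 0 normalized counts at 0.5 µM, and C8orf44-SGK3 had 22.8, 130.3 and 0.

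**Figure D1:**
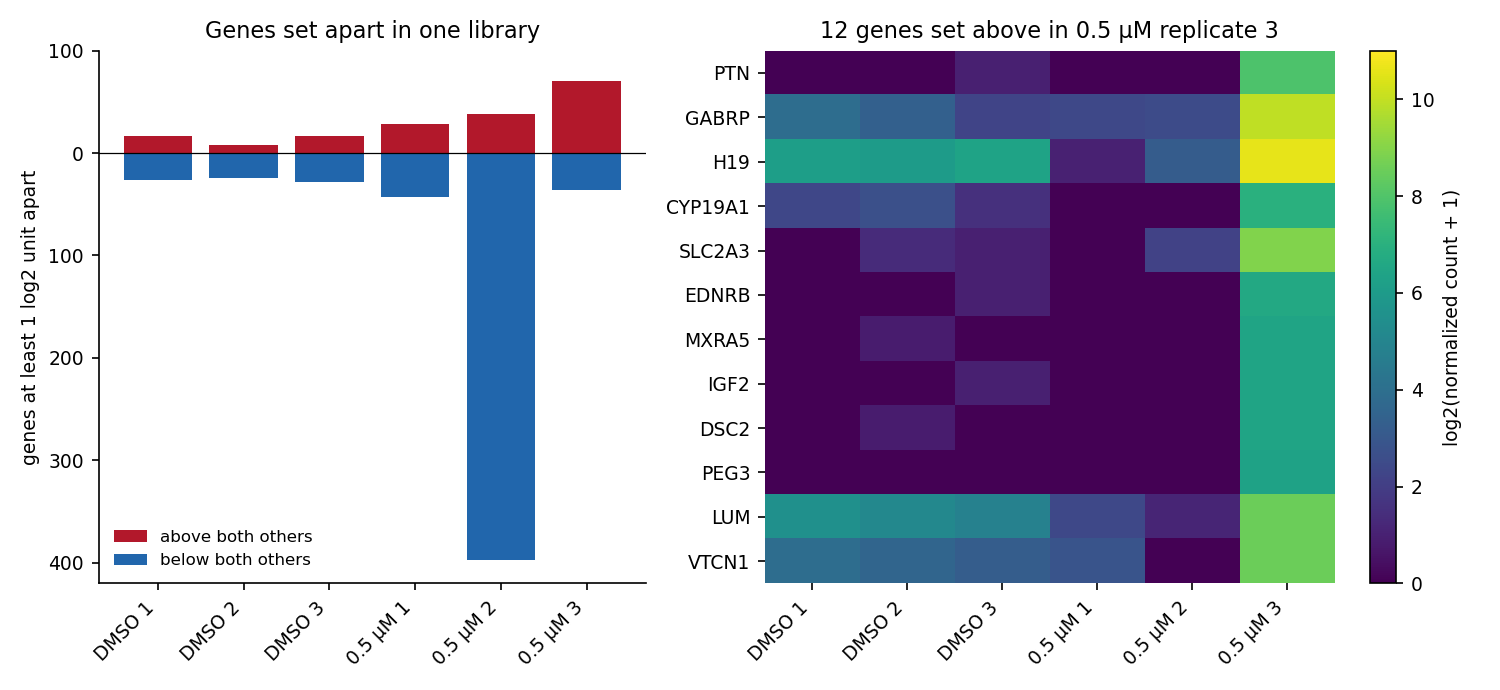
Left: genes at least 1 log2 unit above (red) or below (blue) both other libraries of the same group, for each of the 6 libraries. Replicate 2 at 0.5 µM has 397 genes below. Right: log2(normalized count + 1) in the 6 libraries for 12 of the genes set above in 0.5 µM replicate 3, clone names left out, where replicate 3 alone is bright for most rows.

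At 0.5 µM, 70.0% of the 17514 tested genes were called, 6174 higher (35.3%) and 6081 lower (34.7%). The sizes were modest for most of them, with a median absolute log2 fold change of 0.52 among called genes. At least 2-fold changes were fewer and leaned downward, with 845 genes higher (4.82%) and 1765 lower (10.1%). The groups of 3 did not overlap for 72.6% of genes. Without replicate 2 at 0.5 µM the counts were 6461 higher and 6383 lower, and without replicate 3 they were 6034 and 5983. Leaving out replicate 2 lost 404 calls and gained 993, and leaving out replicate 3 lost 693 and gained 455. Leaving out a DMSO library lost 905 to 991 and gained 70 to 134. The shares called over all tested genes are the background against which the gene lists below are to be read. The median log2 fold change over all tested genes was -0.01.

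**Figure D2:**
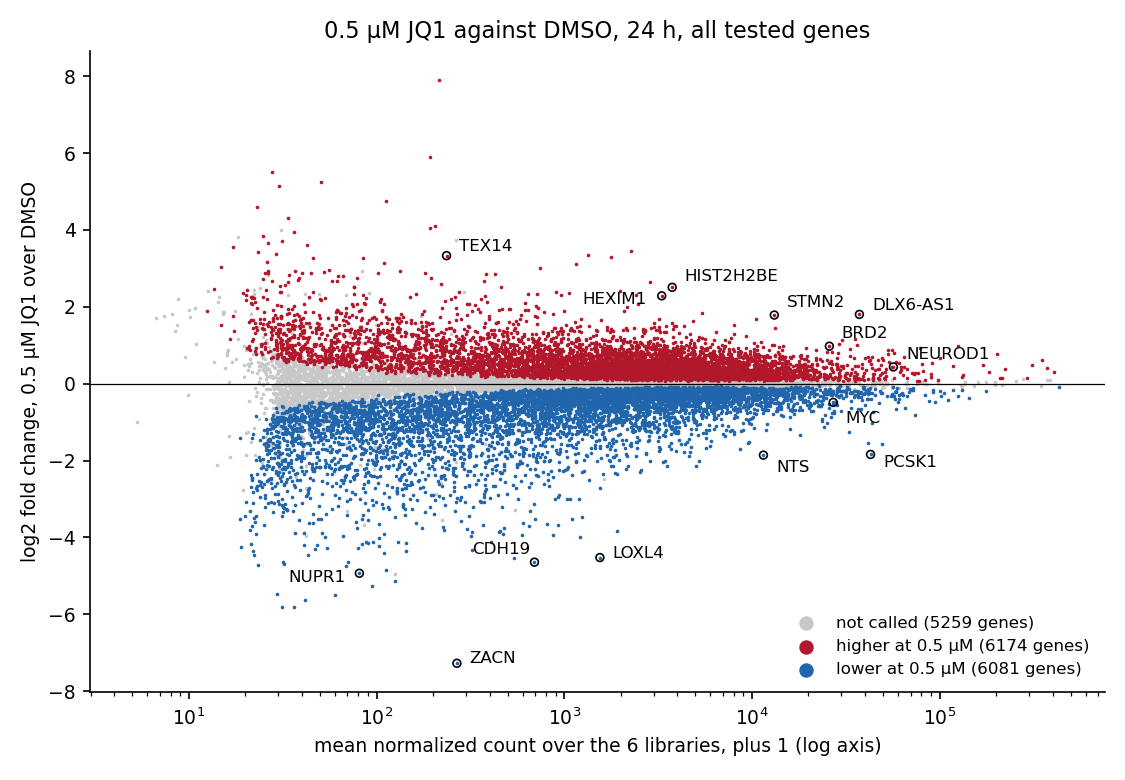
Log2 fold change at 0.5 µM JQ1 over DMSO against the mean normalized count over the 6 libraries plus 1 (log axis), 1 point per tested gene, red for the 6174 called higher, blue for the 6081 called lower and grey for the rest. More genes lie at least 2-fold below DMSO (1765) than above it (845), and HEXIM1 and the histone gene HIST2H2BE are among the circled genes above 0.

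HEXIM1, a marker of BET inhibition, rose in all 3 treated libraries, and the BET gene BRD2 rose as well. HEXIM1 (ENSG00000186834.2) had 1133, 1142 and 1101 normalized counts in DMSO and 5423, 5570.0 and 5469 at 0.5 µM, a 4.88-fold rise (log2 fold change 2.29 ± 0.032, SE, limma adjusted p = 5.19e-11). The groups lay far apart and neither replicate 2 nor replicate 3 stood out. BRD2 had 16807, 17662 and 17855 in DMSO and 32987, 35202 and 34662 at 0.5 µM (1.97-fold). HEXIM2, the paralogue of HEXIM1, went the other way, from 215, 212 and 211 to 148, 173 and 142.

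Of the 30 BET, P-TEFb and super elongation complex genes, 15 were higher, 5 lower (8 without replicate 2) and 10 not called, with a median log2 fold change of 0.14. BRD3 rose by 0.42 ± 0.078 (log2 fold change and SE), the 7SK RNA gene RN7SK by 0.74 ± 0.19, and the kinase gene CDK9 and its partner CCNT2 by 0.25 and 0.45. BRD3 was lower in replicate 2 (10889) than in replicates 1 and 3 (13868 and 13851), all above the DMSO libraries. The scaffold genes AFF4 and MLLT3 of the super elongation complex rose by 0.46 and 0.91. ELL2, the elongation factor that associates with them, fell from 11773, 11810.5 and 11708 to 7121, 7098 and 6757. NELFCD and NELFA, subunits of the negative elongation factor that holds the paused polymerase, fell by 0.50 and 0.30 on the log2 scale.

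In the Mediator complex and RNA polymerase II, 17 of 44 genes were higher and 12 lower, shares close to the background. POLR2A, the catalytic subunit of the polymerase, rose from 18033, 19075 and 20285 to 33213, 32787 and 36091 normalized counts. CDK19, a kinase of Mediator, rose by 0.76, and the Mediator subunits MED24 and MED12 fell by 0.64 and 0.61 on the log2 scale.

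The canonical histone genes, most of them in clusters on chromosomes 6 and 1, had the highest share of members called higher among the 62 gene lists. Their messenger RNAs end in a stem-loop in place of a poly(A) tail in dividing cells, and libraries from total RNA, as used here, can hold both forms. Of 39 tested, 37 were higher, none was lower, and 32 rose at least 2-fold, with a median log2 fold change of 1.87. HIST1H2AL and HIST1H2BO, chosen for mention as the 2 that were not called, had positive estimates. The rise was seen in all 5 protein classes: the median log2 fold change was 1.35 for 2 H1 genes, 2.06 for 11 H2A genes, 1.87 for 13 H2B genes, 2.90 for 6 H3 genes and 1.41 for 7 H4 genes. As a share of all reads in genes, clustered histones took 141 to 145 ppm in the DMSO libraries and 535.5 to 585 ppm at 0.5 µM.

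The promoters of 3 histone genes that rose strongly are shown here, since the members moved together and share known elements. Each is the 250 bases before the annotated start, 5′ to 3′ on the gene's strand, from RefSeq on GRCh38.p14, a build other than the one the authors used. HIST1H2AC lies at chr6:26123922-26124171 (plus strand), HIST2H2BE at chr1:149886683-149886932 (minus strand) and HIST1H2BD at chr6:26157871-26158120 (plus strand). Capitals mark, on either strand, the octamer ATTTGCAT, the TATA box TATAAA and the CCAAT box CCAAT.
HIST1H2AC: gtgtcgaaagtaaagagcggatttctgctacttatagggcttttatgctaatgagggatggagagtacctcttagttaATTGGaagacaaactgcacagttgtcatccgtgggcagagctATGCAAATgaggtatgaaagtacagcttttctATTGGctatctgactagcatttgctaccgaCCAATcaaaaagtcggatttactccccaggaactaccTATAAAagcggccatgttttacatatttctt
HIST2H2BE: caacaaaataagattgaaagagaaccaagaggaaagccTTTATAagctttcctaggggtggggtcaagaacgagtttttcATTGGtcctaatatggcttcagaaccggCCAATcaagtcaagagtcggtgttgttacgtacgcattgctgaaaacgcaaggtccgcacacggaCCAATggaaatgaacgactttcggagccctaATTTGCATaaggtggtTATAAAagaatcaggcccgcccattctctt
HIST1H2BD: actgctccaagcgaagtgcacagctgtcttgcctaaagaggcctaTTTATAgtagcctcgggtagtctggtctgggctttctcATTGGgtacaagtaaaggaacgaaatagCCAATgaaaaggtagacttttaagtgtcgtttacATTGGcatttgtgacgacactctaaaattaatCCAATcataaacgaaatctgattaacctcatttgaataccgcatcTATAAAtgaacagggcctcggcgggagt
These letters were searched in windows from 250 bases before to 50 after the start, for the 22 of 39 histone genes found in the RefSeq table. The octamer was in 10 of 22 (45.5%) against 1.80% of all 27305 promoters, TATAAA in 14 of 22 (63.6%) against 11.95%, and CCAAT in 19 of 22 (86.4%) against 35.7%. HIST1H2AD and HIST1H3D have the same window in the table and were counted separately; over the 21 distinct windows the counts were 9, 14 and 18. The windows of 4 neighbouring pairs of an H2A and an H2B gene overlap. A match describes the letters in the window and is not a measure of binding.

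HIST1H2AC had 338, 322 and 311 normalized counts in DMSO and 3087, 3545 and 3028 at 0.5 µM, a 9.95-fold rise. HIST2H2BE had 1133, 1129.8 and 1110.2 and 6258, 6664 and 6268 (5.69-fold), and HIST1H2BD 228, 251 and 236 and 2310.5, 2589.6 and 2409 (10.2-fold). In all 3 genes the groups were widely separated, with replicate 2 the highest at 0.5 µM. The near-identical H4 genes HIST2H4A and HIST2H4B share reads and are given as their sum, which went from 391, 376 and 373 to 4669.8, 4664 and 4481. HIST2H3A and HIST2H3C, also near-identical, summed to 36.5, 32.7 and 26.3 and 721, 667 and 817. The linker histone HIST1H1C rose from 2140.4, 1998 and 2053 to 5421, 6143 and 5067.

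Outside the clusters, 7 of 10 polyadenylated variant genes were higher and 2 lower. H1F0 and H1FX, linker variants, rose by 0.91 and 0.89 on the log2 scale, and H2AFX, H3F3A and H3F3B by 0.75, 0.69 and 0.61. The macroH2A genes H2AFY2 and H2AFY fell by 0.70 and 0.16. Of 67 histone-modifying enzymes, 35 were higher and 20 lower. The deacetylases HDAC9 and HDAC7 fell from 4851 to 2116 and 2062 to 961 mean normalized counts, while SIRT1, a NAD-dependent deacetylase, rose from 2302 to 4385.

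**Figure D3:**
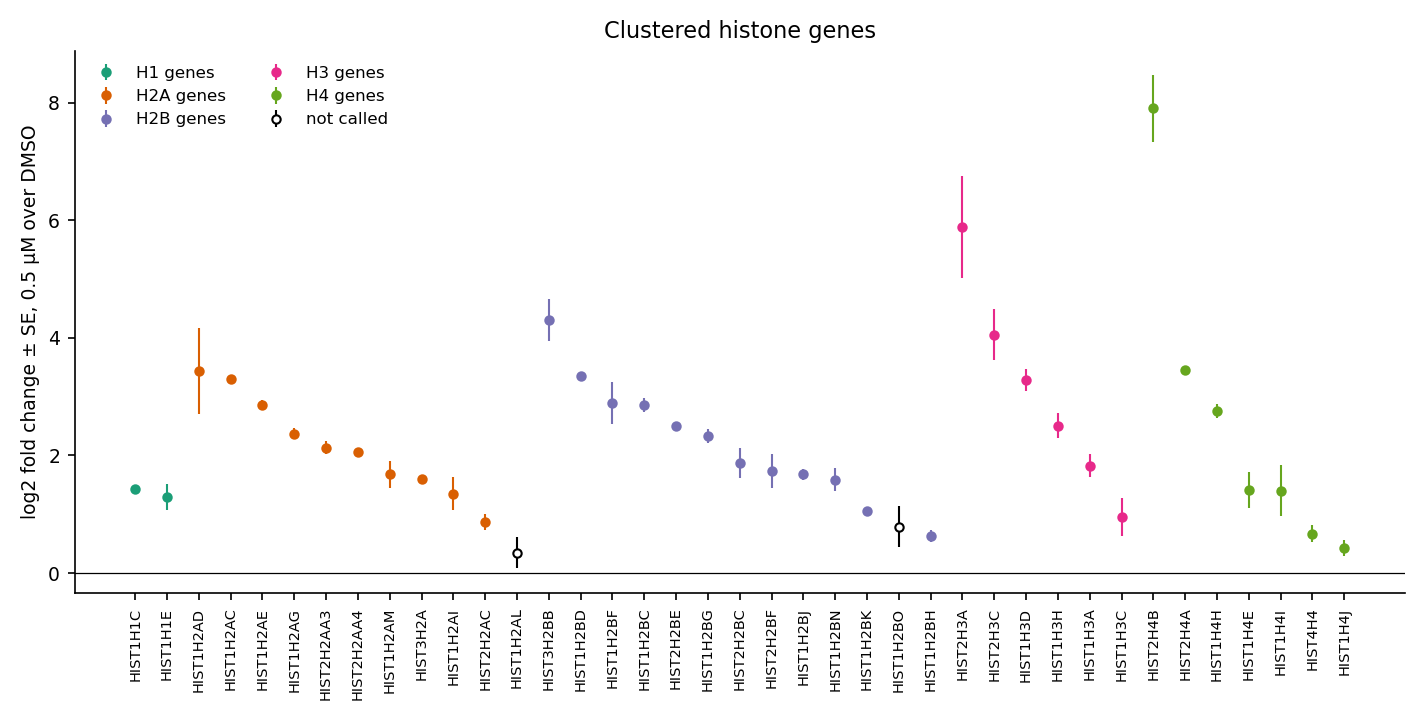
Log2 fold change (0.5 µM over DMSO) with its SE for the 39 tested clustered histone genes, grouped by protein class and sorted within it. All points lie above 0, and the 2 open symbols did not pass the test.

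The largest rises among protein-coding genes with a mean of at least 100 normalized counts included genes of the synapse, the Golgi and germ cells. TEX14, a protein of germ cell bridges, rose from 43.6, 46.7 and 34.8 to 379.7, 502 and 403 (10.3-fold). KIAA1683 rose from 231, 255 and 225 to 2085, 1839 and 2268 (8.71-fold), and CHST2, a sulfotransferase of the Golgi, from 160.2, 171 and 157 to 1311, 1224 and 1432 (8.12-fold). In each of these genes the lowest treated library was several times above the highest DMSO library. EPAS1, which encodes the hypoxia factor HIF-2 alpha, had 21.3, 12.4 and 15.1 in DMSO and 81.96, 92.7 and 427 at 0.5 µM. Its value was led by replicate 3, one of the genes set above there, and without that library the log2 fold change of 3.14 was 2.39 (adjusted p = 0.00268).

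Neuronal and membrane proteins were in this group too. RIMS4, of the presynaptic active zone, rose from 21.3, 27.99 and 44.2 to 234, 221 and 246, and NRGN, the calmodulin-binding protein neurogranin, from 63.9, 50.5 and 72.4 to 348, 420.2 and 361. TMEFF2, a transmembrane protein with follistatin and EGF-like domains, rose from 250.4, 233 and 221 to 1147, 1281 and 1153. Groups were apart in all of them. The other 8 of the 15 were REEP6, IZUMO4, EFR3B, LYRM9, DHRS2, FREM2, C14orf37 and C5, with log2 fold changes from 2.29 (C5, a complement component) to 2.88 (REEP6, a shaper of the endoplasmic reticulum). EFR3B, which anchors a lipid kinase at the plasma membrane, was lower in replicate 2 (3823) than in replicates 1 and 3 (5316 and 5676), against 713 to 863 in DMSO.

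With histone genes left aside, the 15 largest falls among these coding genes, from -7.28 to -3.94 on the log2 scale, were deeper than the 15 largest rises. ZACN, a ligand-gated ion channel, had 979, 383 and 234 in DMSO and 4.15, 1.17 and 1.13 at 0.5 µM, with a wide spread in DMSO. The hair keratins KRT81 and KRT86, whose reads may be split between near-identical copies, summed to 467, 429 and 457 and 9.34, 17.6 and 20.3. CDH19, a cadherin, fell from 1265, 1390.3 and 1347 to 56.02, 50.5 and 50.7 (25.5-fold), and LOXL4, a lysyl oxidase that crosslinks collagen, from 2959, 2989.8 and 2956 to 116, 129 and 139.7 (23.1-fold). Both were well expressed in DMSO and far lower in each treated library.

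2 transcription factors of epithelium were in the same group. TP63, of basal epithelium, fell from 569, 659 and 612 to 35.3, 35.2 and 20.3, and SPDEF, of secretory epithelium, from 289, 274 and 247 to 18.7, 11.7 and 13.5. MLKL, the executor of necroptosis, fell from 253, 252 and 227 to 13.5, 16.4 and 10.1. In none of these did the groups come near each other. BRS3, a receptor of the bombesin family, fell from 1653, 1645 and 1584 to 89.2, 121 and 107 (15.4-fold), and SLC38A5, an amino acid transporter, from 2360.4, 2146 and 2305 to 153, 139.7 and 137. The others of the 15 were FAM135B, CXCL1, C1orf127, CILP and VSIG8, with log2 fold changes from -4.86 to -3.96.

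Among the most abundant transcripts, with means of at least 10000 normalized counts, the 6 largest rises included proteins of the neuronal cytoskeleton and the 6 largest falls included secreted factors. STMN2, a microtubule-destabilizing protein of growing neurites, rose from 5816, 6070.5 and 5803 to 18847, 23371 and 19044 (3.46-fold), INA (a neurofilament protein, internexin) from 18626, 18655 and 19096 to 40138, 43969.7 and 40232, and CDH2, N-cadherin, from 7111, 7101 and 7339 to 15646, 14351 and 15477. SESN3, a stress-responsive inhibitor of mTORC1 signalling, rose 3.24-fold, CIRBP, a cold-inducible RNA-binding protein, 2.22-fold, and ITFG3 (the larger of 2 entries of that symbol) 2.72-fold. Replicate 2 was the highest treated library for STMN2 and the lowest for SESN3, and no treated library fell within the DMSO range. NTS, the peptide neurotensin, fell from 18204, 17984 and 17951 to 4996, 5423 and 4537 (3.62-fold), and PCSK1, a convertase that cuts prohormones, from 65105, 66756 and 69235 to 19145, 18028 and 18929 (3.58-fold). IGFBP5, which binds insulin-like growth factors, and DLK1, a membrane protein related to Notch ligands, fell 2.96-fold and 2.92-fold. SLC7A5 and BCAT1, which import and transaminate branched-chain amino acids, fell 2.52-fold and 2.40-fold.

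**Figure D4:**
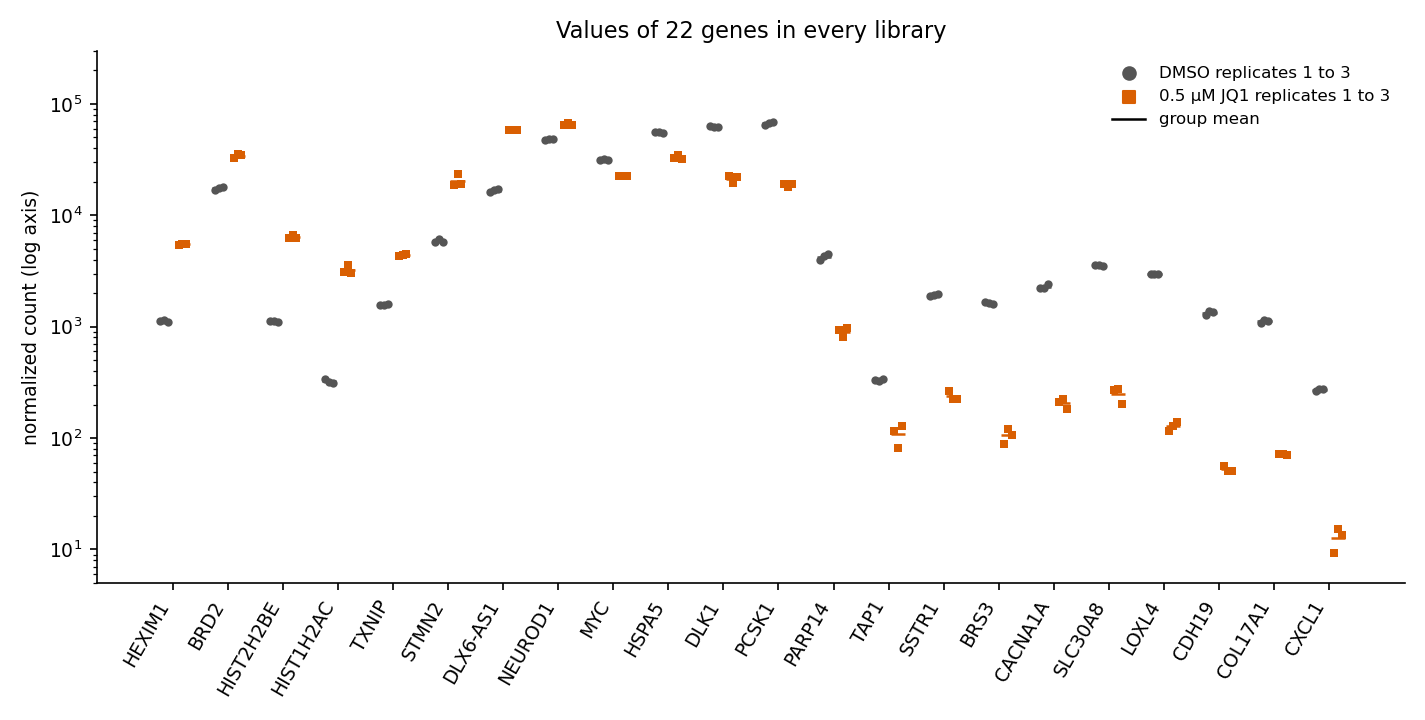
Normalized counts (log axis) of 22 genes in the 3 DMSO libraries (grey circles) and the 3 libraries at 0.5 µM JQ1 (orange squares), with a bar at each group mean. HEXIM1 sits at 1101 to 1142 in DMSO and 5423 to 5570 at 0.5 µM, and no gene drawn has overlapping groups.

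MYC and genes of ribosome production fell, by small amounts. MYC had 31633, 31714 and 31562 in DMSO and 22651, 22313 and 22715 at 0.5 µM (1.40-fold lower), while its relative MYCL rose from 527, 549.7 and 558 to 871, 916 and 820.3. Of the 12 genes of the network, 6 were higher and 6 lower. The MAX partners MXD4 and MXD1, which oppose MYC at its sites, rose by 1.07 and 0.70 on the log2 scale, MXD4 from 4911, 4746 and 4902 to 10381, 9659.8 and 10653. MXI1, another MAX partner of this kind, fell by 0.36.

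Of 70 nucleolar genes of ribosome assembly, 66 were lower and none was higher, with a median of -0.42 and 3 members at least 2-fold lower. These 3 were NOP16, WDR74 and PPAN, pre-ribosome assembly factors; NOP16 fell from 1937, 1872 and 1891 to 779, 838 and 794. Cytosolic ribosomal proteins had 53 of 79 lower and 6 higher (2 higher without DMSO replicate 3), with a median of -0.22. Mitochondrial ribosomal proteins had 43 of 76 lower and 6 higher, also with a median of -0.22. RPL29 fell from 27564, 27074 and 26365 to 19129, 17416 and 18497, and MRPL15 from 4616, 4509.9 and 4508 to 2173, 2489 and 2111. Of 20 genes listed as hosts of small nucleolar RNAs, 16 were lower and 1, TUG1, was higher (2 higher without replicate 3 at 0.5 µM). TUG1 is better known as a long intergenic RNA than as such a host. SNHG16 fell from 8004, 7852 and 7653 to 4724, 2319.6 and 4703, with replicate 2 the lowest treated library.

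Lists of protein synthesis and of the secretory pathway had more members lower than higher. Of 20 cytosolic tRNA synthetases, 14 were lower and 2 higher (median -0.29); YARS and MARS fell by 0.68 and 0.67 on the log2 scale, and WARS and DARS rose by 0.20 and 0.17. Of 29 genes of the integrated stress response, a programme run by ATF4 that supplies amino acids, 23 were lower and 5 higher (median -0.49). NUPR1, a stress-induced chromatin protein, fell from 169, 155 and 143 to 4.15, 2.35 and 6.76, and SLC7A11, the cystine importer, from 2132, 2253 and 2483 to 391, 403 and 421 (5.65-fold). STC2, a secreted glycoprotein, fell from 2850.1, 2724 and 2872 to 644, 755 and 686. All 3 lay far below their DMSO range in each treated library. SESN2, ATF5 and ATF3 of the same list rose, by 0.59, 0.54 and 0.46.

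Of 23 chaperones and sensors of the endoplasmic reticulum, 15 were lower and 2 higher (median -0.32). HSPA5, the main chaperone of that compartment, fell from 55809, 55959.5 and 54380.5 to 32931, 35118 and 31905, and XBP1, a transcription factor of secretory stress, from 8106, 8428 and 8209 to 4319, 4403 and 4271. ERN1, the sensor that splices XBP1, rose from 1630.4, 1662 and 1798 to 3393, 2779 and 3434. Cytosolic heat shock genes were divided, 10 higher and 15 lower of 32, with falls of HSPB8 (3.40-fold) and HSPB1 (2.86-fold), both small heat shock proteins. Of 37 proteasome subunits, 28 were lower and 2 higher (1 higher without DMSO replicate 2 or 3). Of 59 lysosome and autophagy genes, 31 were higher and 11 lower; ULK2, a kinase that starts autophagy, rose from 2119, 2101 and 2157 to 4651, 4458 and 4784.

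Inhibitors of the G1 kinases rose and a D-type cyclin fell. Replication and mitosis genes moved by less than 2-fold with 1 exception, E2F2, which was under 2-fold without replicate 2 at 0.5 µM. CDKN2D and CDKN2C, inhibitors of CDK4 and CDK6, rose from 2385, 2362 and 2245 to 5519, 6284 and 5659.5 and from 24388, 24092 and 24006 to 44899.6, 56007 and 44784. In both, replicate 2 was the highest and all treated libraries were above DMSO. CCND2, a D-type cyclin, fell from 466, 517 and 492 to 60.2, 37.6 and 112, and CDK6 fell by 0.53 on the log2 scale. Of 16 genes of this list, 10 were higher and 4 lower. CDKN1A, the p21 inhibitor, had 12776, 12688 and 12853 and 13488, 12803 and 13647, groups that overlapped, and was not called.

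Of 58 replication genes 28 were higher and 15 lower, of 45 mitotic genes 26 and 11, and of 50 genes of recombination, the Fanconi pathway and checkpoints 28 and 10. E2F2, a transcription factor of S phase, was the 1 called member of these 3 lists to change at least 2-fold. It fell from 4303, 4184 and 4497 to 2197, 1822 and 2251. Without replicate 2 at 0.5 µM its log2 fold change was -0.96, under 2-fold, and without replicate 3 it was -1.11. TIMELESS, of the replication fork, rose by 0.72, ASPM, of the mitotic spindle, by 0.72, and SLX4, a scaffold for repair nucleases, by 1.00. FANCD2, the Fanconi protein that is ubiquitinated at stalled forks, fell by 0.82.

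Genes of cell death moved in both directions. Of 26 targets of p53, 15 were higher and 8 lower. TP53INP1 rose from 1621, 1656 and 1816 to 4895, 4083 and 5163, and GADD45G, a stress-responsive growth inhibitor, fell from 3119, 3056 and 3019 to 975, 1175 and 972. The BCL2 family had 7 of 19 members higher (36.8%) and 8 lower (42.1%), against 35.3% and 34.7% of all tested genes. BCL2L11, which encodes the killer protein BIM, rose from 2957, 2864 and 2962 to 5672, 5227 and 5733, and PMAIP1 (NOXA) rose by 0.42. BIK and BOK, also promoters of death, fell from 317 to 107 and from 1046 to 459 mean normalized counts. MCL1, a protector, rose by 0.32 and BCL2L1 fell by 0.16. Among 19 caspases, their partners and inhibitors, 9 were higher and 7 lower; APAF1 and CASP9, which together form the apoptosome, rose by 0.73 and 0.72. CFLAR, the inhibitor of caspase-8, fell from 1525, 1590.1 and 1595 to 486, 567 and 494, CASP8 fell by 0.53, and TNFRSF1A, a TNF receptor, fell from 149, 178 and 176 to 15.6, 19.96 and 23.7.

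Genes of NF-kappa B, interferon response and antigen presentation were mostly lower. NF-kappa B is a family of dimers that turn on chemokines and their own inhibitors, interferon acts through STAT proteins and IRF9, and class I presentation loads proteasome peptides on HLA molecules. The promoters of CXCL1, OAS3 and TAP1 are shown as 1 example from each list. They were taken as above and lie at chr4:73869143-73869392 (plus strand), chr12:112938224-112938473 (plus strand) and chr6:32853705-32853954 (minus strand). Capitals mark GGGANNNNCC, a core of NF-kappa B sites, in CXCL1, GAAANNGAAA, a core of interferon-stimulated response elements, in OAS3, and both in TAP1, on either strand.
CXCL1: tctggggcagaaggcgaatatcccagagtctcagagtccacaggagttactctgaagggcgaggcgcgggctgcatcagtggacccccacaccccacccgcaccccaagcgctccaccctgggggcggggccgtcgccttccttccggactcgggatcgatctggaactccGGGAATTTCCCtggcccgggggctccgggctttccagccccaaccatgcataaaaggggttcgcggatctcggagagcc
OAS3: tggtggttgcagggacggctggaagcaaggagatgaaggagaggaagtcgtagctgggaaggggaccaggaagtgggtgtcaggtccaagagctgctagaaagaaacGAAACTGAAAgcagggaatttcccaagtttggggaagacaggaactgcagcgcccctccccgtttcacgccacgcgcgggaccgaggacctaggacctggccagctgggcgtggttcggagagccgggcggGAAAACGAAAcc
TAP1: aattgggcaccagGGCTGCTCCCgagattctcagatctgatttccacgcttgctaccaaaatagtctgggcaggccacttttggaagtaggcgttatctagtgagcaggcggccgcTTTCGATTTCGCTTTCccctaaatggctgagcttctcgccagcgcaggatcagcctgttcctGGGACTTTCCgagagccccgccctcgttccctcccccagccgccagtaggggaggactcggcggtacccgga
GGGANNNNCC was in 15 of the 20 NF-kappa B genes with a promoter in the table (75%) and in 8 of 16 presentation genes (50%), against 25.1% of all promoters. GAAANNGAAA was in 15 of 29 interferon-stimulated genes (51.7%) and in 9 of 16 presentation genes (56.3%), against 3.65% of all. Matches were not confined to genes that were lower. REL and HERC5, called higher, had matches to the letters searched in their lists, and TNFAIP2, OAS1 and PSMB8, called lower, had none. Whether a match goes with the direction of change was not tested.

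Of 24 NF-kappa B genes, 16 were lower, 8 of them at least 2-fold, and 6 higher. CXCL1, a neutrophil chemokine, fell from 267, 274 and 277 to 9.34, 15.3 and 13.5 (21.4-fold), and CXCL3 from 160.2, 136 and 147 to 22.8, 42.3 and 25.9. TNFAIP3, the A20 brake of the pathway, fell from 1413, 1493 and 1501 to 397, 419 and 423. No treated library came near the DMSO range in these 3. The subunit genes were divided: RELB, NFKB1 and NFKB2 had log2 fold changes of -1.03, -0.82 and -0.50, and REL rose by 0.73.

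Interferon-stimulated genes had 23 of 35 lower, 7 higher and a median of -0.60. PARP14, an ADP-ribosyltransferase, fell from 3932, 4283 and 4461 to 925, 806 and 964 (4.70-fold), OAS3, which makes 2-5A in response to double-stranded RNA, from 1701, 1898 and 1965 to 473, 387 and 522, and XAF1 from 148, 133 and 151 to 19.7, 34.04 and 27.04. HERC5 and RSAD2 were the 2 members at least 2-fold higher and are named after their values were seen: HERC5, the ligase for ISG15, had 2.03, 5.44 and 1.88 and 41.5, 58.7 and 43.9, and RSAD2, the antiviral enzyme viperin, 18.3, 11.7 and 17.9 and 41.5, 45.8 and 60.8.

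Of 20 genes of class I presentation, 15 were lower and 1 higher (3 higher without replicate 2), with a median of -0.89. NLRC5, the transactivator of the class I genes, fell from 478, 456 and 501 to 107, 82.2 and 119, and the peptide transporter genes TAP1 and TAP2 (the larger of 2 entries of that symbol) from 334, 326 and 339.6 to 116, 82.2 and 127 and from 1302, 1392 and 1327 to 325, 387 and 313. PSMB8 and PSMB9, subunits of the immunoproteasome, fell 3.70-fold and 2.36-fold (the PSMB9 call, adjusted p = 0.014, had 0.0563 without DMSO replicate 3), and the trimming enzyme genes ERAP1 and ERAP2 2.53-fold and 4.55-fold. HLA-C, a class I molecule, fell by 0.53 on the log2 scale. CD274, the checkpoint ligand PD-L1, fell from 40.6, 42.8 and 54.6 to 26.97, 32.9 and 18.03 (adjusted p = 0.0225), a call that was lost without DMSO replicate 3 or 0.5 µM replicate 3 (adjusted p = 0.0842 and 0.0794).

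Of 32 immediate early and feedback genes, 17 were higher and 10 lower. EGR1, a growth-induced transcription factor, rose from 32.4, 50.5 and 51.7 to 184, 155 and 166, and SPRY2, an inhibitor of receptor kinase signalling, from 117, 97.2 and 110.1 to 280.1, 264 and 318. DUSP2, a MAP kinase phosphatase, fell from 1238, 1222 and 1179.8 to 244, 209 and 233, and NR4A3, an orphan nuclear receptor, from 405, 411 and 458 to 124, 108 and 166.

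**Figure D5:**
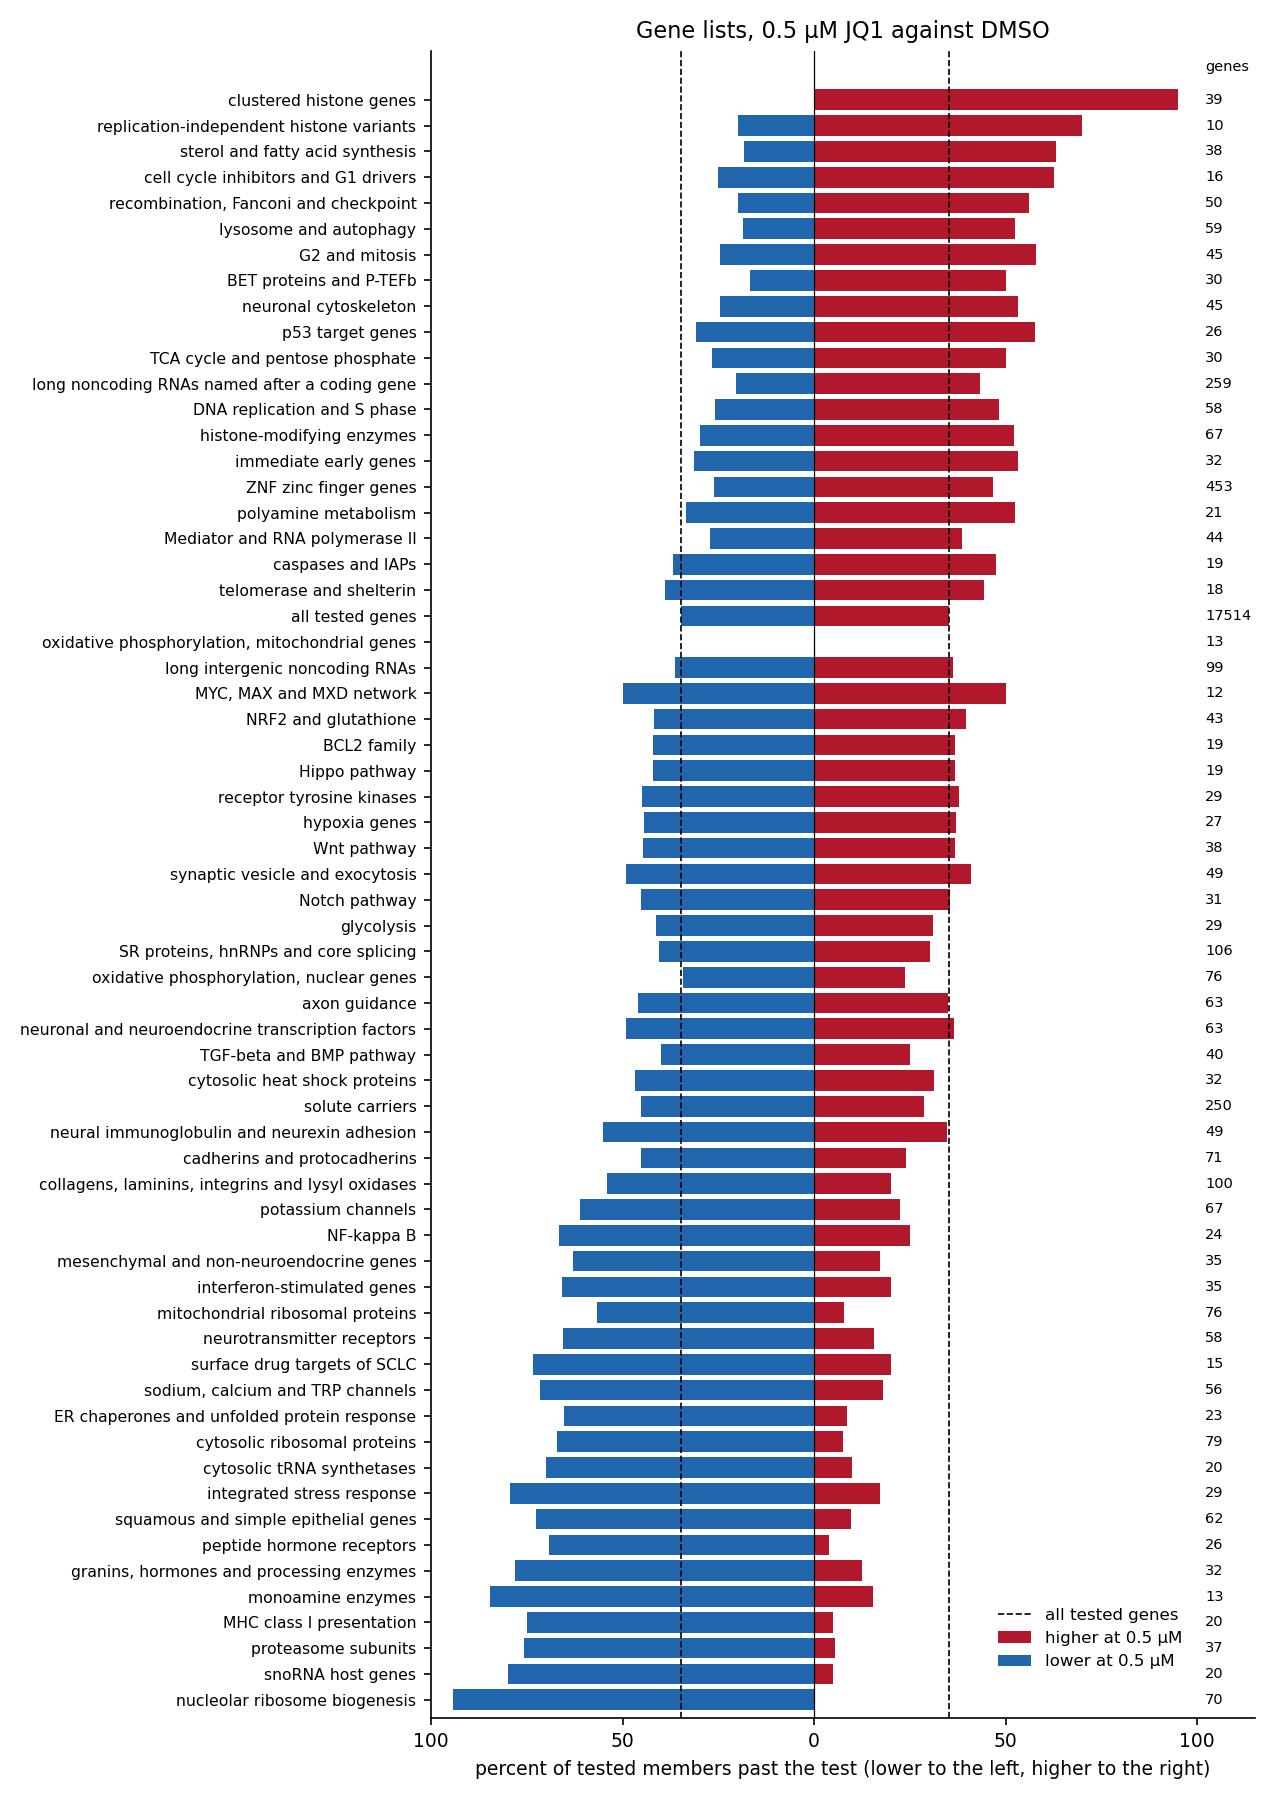
Percent of tested members called higher (red, right) and lower (blue, left) at 0.5 µM in each gene list, with the number of tested members at the right edge and dashed lines at the values of all tested genes, 35.3% and 34.7%. Clustered histones lie at the top, and nucleolar ribosome biogenesis, with no member higher, at the bottom end.

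NEUROD1, which defines the labelled subtype, rose from 47678, 48167 and 48883 to 64132, 67041 and 64578 (1.35-fold). INSM1, a zinc finger factor of neuroendocrine cells, had 66870.3, 65067 and 65485 and 69159, 61287 and 67656, was not called, and overlapped between the groups. YAP1, a marker of the non-neuroendocrine state, had 11.2, 10.1 and 12.2 and 12.4, 12.9 and 148: replicate 3 alone was high and the gene was not called.

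Of 63 transcription factors of neurons and neuroendocrine cells, 23 were higher and 31 lower, 5 and 12 of them at least 2-fold. PAX4, a factor of pancreatic islet development, fell from 1708, 1645 and 1768 to 151, 127 and 121 (12.8-fold), and NEUROD6, a relative of NEUROD1, from 162, 122 and 119 to 4.15, 5.87 and 3.38. FOXA2, of foregut endoderm, fell from 1084, 1031 and 1073 to 296, 296 and 309.8. These 3 were among the deepest falls of the list, with no overlap. The falls of SCRT2, RXRG, OLIG2, TLX2 and NR0B1 ranged from -2.51 to -1.62 on the log2 scale. On the other side, POU3F2 (BRN2), INSM2 and ZIC2 rose from 67.5 to 189.6, 295 to 696 and 366 to 813 mean normalized counts. The lineage factors SOX2, SOX4, SOX11, ONECUT2 and NKX2-1 rose by 0.52, 0.67, 0.54, 0.56 and 0.43. REST, the repressor of neuronal genes, rose from 25.3, 36.5 and 17.9 to 43.6, 51.7 and 67.6, a low level throughout.

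Peptide hormones and their receptors were mostly lower. Of 32 granins, hormones and processing enzymes, 25 were lower, 14 of them at least 2-fold, and 4 higher (median -0.61). UCN3, a peptide of the corticotropin-releasing family, fell from 1132, 1167 and 1046 to 81.96, 98.6 and 90.1 (12.4-fold), NPPA, the atrial natriuretic peptide, from 134, 131 and 116 to 24.9, 21.1 and 20.3, and TRH, the thyrotropin-releasing hormone, from 88.2, 88.6 and 79.03 to 15.6, 21.1 and 19.2. VGF, a neurosecretory protein, rose from 5564, 5399 and 5556 to 13705, 11862 and 13378. The granin CHGA fell by 0.41 on the log2 scale.

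Of 26 receptors for peptide hormones, 18 were lower, 13 at least 2-fold, and 1, CRHR1, was called higher, a call that was lost when any one of DMSO replicate 3 and the 0.5 µM libraries was left out. The median was -1.07. The somatostatin receptor SSTR1 fell from 1879, 1909.7 and 1957 to 266, 227 and 224 (8.02-fold), and KISS1R, the kisspeptin receptor, from 352, 358 and 324 to 58.1, 38.7 and 40.6. With BRS3, given above, these were the 3 deepest falls of the list among genes with a mean of at least 50 normalized counts.

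Genes of amine handling were mostly lower. Of 13 enzymes and transporters of monoamines, 11 were lower and 2, ALDH2 and SLC6A3, higher. DDC, which makes dopamine and serotonin from their amino acid precursors, fell from 11216, 11329 and 11279.5 to 4712, 4904 and 4510.3, MAOB from 515, 519 and 513 to 217, 235 and 193, and DBH, which makes noradrenaline, from 74.02, 85.5 and 91.3 to 30.1, 34.04 and 18.03. SLC18A1, which loads amines into secretory vesicles, fell from 341, 323 and 314 to 20.7, 29.3 and 20.3 (13.9-fold). Genes of synaptic vesicles as a whole were divided, with 20 of 49 higher (40.8%) and 24 lower (49.0%). Both shares were above those of all tested genes (35.3% and 34.7%), the lower share by more. VAMP1, a vesicle SNARE, rose from 301, 311 and 259 to 701, 842 and 851, and PCLO, a giant active zone protein, from 4177, 4886 and 5482 to 8899, 10003 and 9886.

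Ion channels and transmitter receptors were more often lower than higher. Of 56 sodium, calcium and TRP channel genes, 40 were lower and 10 higher (median -0.77). CACNA1A, the pore of P/Q-type calcium channels, fell from 2217, 2219 and 2419.8 to 209.6, 227 and 184 (11.1-fold), CACNG6, an accessory subunit, from 1509, 1487 and 1485 to 123, 129 and 103, and TRPV2 from 199, 208 and 209.8 to 18.7, 21.1 and 24.8. SCN9A, a sodium channel of sensory neurons, rose from 561, 611 and 696 to 1676, 1764 and 1748. Of 67 potassium channel genes, 41 were lower and 15 higher (median -0.42), with KCNT1 falling from 1701, 1751 and 1678 to 368, 366 and 361. Of 58 transmitter receptor genes, 38 were lower and 9 higher (median -0.59). CHRNA1, the muscle-type acetylcholine receptor subunit, fell from 1025, 987 and 1019.9 to 139, 126 and 112, and GABRR1 from 134, 152 and 144 to 13.5, 8.22 and 11.3. The glutamate receptor subunits GRIA2 and GRIK2 rose from 307 to 648 and 257 to 501 mean normalized counts.

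Among 250 solute carriers, 113 were lower and 72 higher. SLC30A8, the zinc transporter of insulin granules, fell from 3564, 3575 and 3506 to 269.7, 277 and 201 (14.2-fold). SLC12A2, a sodium-potassium-chloride cotransporter, rose from 1874, 1879 and 2133 to 5319, 4222 and 5361.

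Adhesion and guidance molecules moved in both directions. Of 71 cadherins and protocadherins, 17 were higher and 32 lower: CLSTN2 rose from 838, 883 and 980.3 to 2509, 2319.6 and 2644, and PCDH20 fell from 2092, 2073 and 2068 to 582, 512 and 590.4. Neural adhesion molecules of the immunoglobulin, leucine-rich and neurexin families had 17 of 49 higher and 27 lower. CADM2, a synaptic adhesion molecule, rose from 91.3, 91.8 and 87.5 to 417, 411 and 466 (4.79-fold), and LRFN1, LRFN4 and LRRTM1, organizers of synapses, had log2 fold changes of -2.11, -1.90 and -1.81. Of 63 guidance genes, 22 were higher and 29 lower. The Eph receptor EPHB1 rose from 228, 191 and 213 to 814, 759 and 843 and the ephrin EFNB2 from 1862, 1796 and 1979 to 5759, 5246 and 5777, whereas the semaphorins SEMA3E and SEMA3A fell from 317, 307 and 317 to 71.6, 51.7 and 57.5 and from 4386, 4600.1 and 4843 to 1135, 1193 and 1119. Of 45 genes of the neuronal cytoskeleton, 24 were higher and 11 lower; beside STMN2 and INA, the doublecortin-like kinase DCLK2 rose from 35.5, 34.99 and 40.5 to 158, 198 and 163. VIM and NES, intermediate filaments of progenitors, fell from 1249, 1183 and 1212 to 558, 571 and 650.1 and from 1474, 1538 and 1463 to 909, 811 and 901.

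Epithelial and mesenchymal genes were lower together. Of 62 epithelial genes, 45 were lower, 24 at least 2-fold, and 6 higher (median -0.79). Of 35 mesenchymal and non-neuroendocrine genes, 22 were lower and 6 higher (median -1.02). CNN2, an actin-binding protein, fell from 880.1, 809 and 802 to 145, 144 and 127, S100A11 from 1679, 1711 and 1630.5 to 316, 397 and 353, and MYOF, a membrane repair protein, from 199.7, 242 and 276 to 16.6, 27.00 and 98.02. Replicate 3 was the highest treated library in MYOF, one of the genes of mesenchyme, though still under the DMSO range, and without that library the log2 fold change of -2.70 was -3.42. Without replicate 3, which held the high LUM, COL3A1 and DCN, the mesenchymal list had 6 higher and 23 lower. ZEB1, a repressor of epithelial genes, rose from 335, 355 and 399.9 to 739.7, 794 and 821, and JUP, a junction protein, from 12279.6, 11949.7 and 12305 to 19356, 19557 and 20266.

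Of 100 collagens, laminins, integrins and lysyl oxidases, 54 were lower, 33 at least 2-fold, and 20 higher. COL17A1, a collagen of hemidesmosomes, fell from 1083, 1137 and 1131 to 72.6, 71.6 and 70.98 (15.6-fold), and LOX from 784, 758 and 803 to 129.7, 78.6 and 112. The integrin ITGB5 rose from 188, 189 and 187 to 714, 703 and 702 (3.76-fold), FBN1, fibrillin, from 129, 95.6 and 121 to 445, 491 and 533, and ITGA6, of the laminin receptor, from 89.2, 109.6 and 93.1 to 229, 252 and 222. Without replicate 3 the list had 20 higher and 52 lower.

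In the developmental signalling pathways, ligands, receptors and targets went both ways, as did all tested genes (35.3% higher and 34.7% lower). The shares higher and lower were 35.5% and 45.2% for Notch and 36.8% and 44.7% for Wnt. They were 25% and 40% for TGF-beta and BMP, and 36.8% and 42.1% for Hippo. In the Notch pathway, 11 of 31 genes were higher and 14 lower. The target HES1 fell from 159, 163 and 152 to 33.2, 29.3 and 25.9, and the ligand DLL1 from 1045, 992 and 1066 to 193, 198 and 205, while the ligand JAG1 rose from 2800.5, 2837 and 2810.2 to 5630.5, 5142 and 5871 and the target HEYL from 103, 93.3 and 135 to 264, 223 and 278. In the Wnt pathway (14 higher and 17 lower of 38), the receptor FZD1 rose from 564, 602 and 587 to 1962, 1749 and 1896, LGR4, the R-spondin receptor, from 768, 813 and 913 to 1998, 2314 and 2177, and the secreted inhibitors NOTUM and FRZB fell from 847 to 247 and 1142 to 397 mean normalized counts. In the TGF-beta and BMP pathway (10 higher and 16 lower of 40), the activin subunit genes INHBE and INHBA fell from 869, 753 and 894 to 43.6, 66.9 and 60.8 and from 364, 382 and 397 to 48.8, 52.8 and 46.2, and the receptor ACVR1C from 6878, 7113 and 7512 to 2419, 2145 and 2244. In the Hippo pathway (7 higher and 8 lower of 19), AMOTL2 and TEAD3 fell from 1787 to 504 and 480.0 to 150.4, and the kinase STK3 rose from 736 to 1406.

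Of 29 receptor tyrosine kinases, 11 were higher and 13 lower. The neurotrophin receptor NTRK2 fell from 541, 606 and 618 to 98.6, 84.5 and 128, and ERBB4 rose from 216, 224 and 229 to 622, 452 and 621. Of 15 genes in a list of surface drug targets of SCLC, 11 were lower and 3, NCAM1, FUT8 and CD47, higher. FUT8 encodes an enzyme of the Golgi and not a surface protein. NCAM1 rose from 19066, 19433 and 20866 to 29431, 31677 and 30611, and CEACAM5 fell from 227, 262 and 259 to 33.2, 21.1 and 24.8.

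Kinases that control pyruvate use moved in both directions. The pyruvate dehydrogenase kinase genes PDK4 and PDK2 fell from 8240.2, 8378 and 8567 to 2029, 2313 and 1957 and from 520.1, 534 and 521 to 189.9, 174 and 196, while PDK3 rose from 892, 949 and 886 to 1879, 1980.3 and 1781. Hexokinase HK2 fell from 4891, 5032 and 5413 to 2645, 1755 and 2884. Glycolysis genes as a list had 9 of 29 higher and 12 lower. Of 30 genes of the citric acid cycle and pentose phosphate pathway, 15 were higher and 8 lower, with OGDH rising from 8736, 8818 and 8755 to 17890.5, 16624 and 17882 and ME1, the cytosolic malic enzyme, falling from 2098, 2074 and 2112 to 994, 1012 and 916. No mitochondrial-encoded gene of oxidative phosphorylation was called in the limma fit (0 of 13, and 0 at an unadjusted p under 0.05), and 1 was called with DESeq2. Of 76 nuclear ones 18 were higher and 26 lower, and without replicate 3 at 0.5 µM 24 and 21, so no direction is given. Of 38 genes of sterol and fatty acid synthesis, 24 were higher and 7 lower; INSIG1, a sterol sensor, rose from 4530.2, 4632 and 4608 to 9384, 9231 and 9102.

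TXNIP, an inhibitor of thioredoxin that is regulated by glucose, rose from 1581, 1574 and 1606 to 4325, 4413 and 4454 (2.77-fold). It belongs to a list of 43 genes of NRF2 and glutathione that was divided, 17 higher and 18 lower, with GPX2, a glutathione peroxidase, falling from 576, 602 and 661 to 175, 229 and 197. Of 21 polyamine genes, 11 were higher and 7 lower: SAT1, which acetylates polyamines for export, rose from 135, 140.0 and 135 to 269.7, 319 and 336, and SRM, spermidine synthase, fell from 9709, 9396 and 9306 to 5895, 5144 and 6135. TERT, the catalytic subunit of telomerase, fell from 613, 628 and 606 to 274, 232 and 264, in a list of 18 with 8 higher and 7 lower. In the 27 hypoxia genes (10 higher and 12 lower), CA12, a carbonic anhydrase, fell from 141, 131 and 166 to 58.1, 62.2 and 50.7.

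The ZNF zinc finger family and the noncoding RNAs named after a coding gene had more members higher than lower. Of 453 ZNF genes, 211 were higher and 119 lower (median 0.15), with ZNF837 rising from 148, 126 and 135 to 485, 453 and 474 and ZNF618 falling from 6917, 7057 and 7936 to 2018, 1825 and 2124. Splicing factors had 32 of 106 higher and 43 lower; SRRM4, the regulator of neuronal microexons, rose from 2503, 2643 and 2841 to 4747, 4589 and 4964, and NOVA2, a neuronal splicing factor, fell from 2542, 2652 and 2756 to 1420.3, 1237 and 1493. Of 259 noncoding RNAs named after a coding gene, 112 were higher and 53 lower (median 0.24). Antisense and overlapping genes may share reads, since how strand was used in counting was not stated. Long intergenic RNAs were even, with 36 higher and 36 lower of 99 (36.4% each), shares close to the background.

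DLX6-AS1, an abundant noncoding RNA of the DLX5 and DLX6 locus, rose from 16194, 16748 and 17045 to 57766, 57777 and 58764 (3.49-fold). KCNJ2-AS1 rose from 25.3, 18.7 and 26.3 to 154, 209 and 169, LINC00936 from 58.3 to 209.6 and LINC00472 from 76.7 to 272 mean normalized counts. All treated libraries were above all DMSO libraries in these 4. LINC00261, a noncoding RNA next to FOXA2, fell from 334, 348 and 358 to 42.5, 38.7 and 29.3, and RAMP2-AS1, LINC01088 and LINC00963 fell 8.04-fold, 6.88-fold and 4.64-fold.

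The authors' FPKM table gave fewer calls, with more genes lower than higher. Of 17951 genes with at least 0.5 FPKM in 3 or more libraries, 5146 were higher (28.7%) and 5740 lower (32.0%). HEXIM1 had a log2 fold change of 2.21 on that scale, NEUROD1 0.40, MYC -0.54 and PCSK1 -1.86.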

How the data were processed

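RNA from 9 libraries of COR-L279 cells, 3 each in DMSO, 0.5 µM and 1.5 µM JQ1, was sequenced from total RNA with a stranded kit, per the labels. The submitters' processing notes name cutadapt, STAR, RSEM and hg19. Versions, annotation and strand use in counting were not stated there. The deposited normalized counts (unit signal) are gene counts that the authors divided by 1 size factor per library, a DESeq2 normalization by the deposited table's name. Dividing by a factor found from the low values gave whole reads for 100% of values in each library (tolerance 0.001). The authors also deposited FPKM values, used as a check.

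Genes with at least 10 normalized counts in at least 3 of the 9 libraries were tested (17514 of 17518) with R 4.3.3 and limma 3.58.1. The values were log2(normalized count + 1), the 9 libraries shared a single trended fit, with Benjamini-Hochberg adjustment over all tested genes and a threshold of 0.05. A fold change in the text is a ratio of group means, and a log2 fold change is the fitted one. FPKM values were tested as log2(FPKM + 0.1) for genes with at least 0.5 FPKM in 3 libraries. Alternatives were edgeR 4.0.16 (6190 genes higher and 6050 lower on the recovered reads), DESeq2 1.42.0 (6171 and 5990), other scalings, pseudocounts and filters, a replicate block, and leaving out libraries. Of these fits, only the main limma fit was run on simulated counts. Those had few changed genes and no library made to stand apart, unlike the data here.

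Groups came from the treatment labels. The gene lists, their members and the naming rule were chosen with earlier results of these data known. Named were HEXIM1, members of the BET, MYC and neuroendocrine factor lists, the 15 coding genes (mean of at least 100), 6 abundant genes (mean of at least 10000) and 4 noncoding genes with the largest log2 fold changes in each direction, up to 3 members per direction in each list (any in lists of at most 25), and genes set apart in a library. Depth was 60721187 to 88482001 reads in genes. Promoters came from RefSeq on GRCh38.p14, matched by symbol. A few genes are not reported here.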

Additional observations from a re-analysis of the deposited data

Results flagged for a closer look

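The FPKM table lists 40302 genes that the normalized count table does not hold, and the tests above did not use them. Of these, 711 had a mean of at least 1 FPKM in either group. At 0.5 µM, 47 of the 711 (6.61%) were at least 2-fold higher than in DMSO with no overlap of the groups, and 88 (12.4%) were at least 2-fold lower. In the normalized count table, 4.82% of genes were called at least 2-fold higher and 10.1% lower, by limma rather than by overlap. Processed pseudogenes made up 43 of the 88 lower genes and 7 of the 47 higher ones. Their share among all 711 genes was not counted, so these numbers do not show an excess in either direction. Of the 43, 11 were listed at 0 in 0.5 µM replicate 2, the library in which this class was low among tested genes; the part of that library in these counts was not tested. These genes of the FPKM table are given because they lie in a table that the comparisons did not use. The difference was not tested for them, and their read depth is unknown.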

How the results depend on the processing

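Over 20 alternatives, the count of genes higher ranged from 5146 (FPKM) to 6934 against 6174, and of genes lower from 5522 to 6902 against 6081. Genes at least 2-fold higher ranged from 741 to 890 against 845, and at least 2-fold lower from 1508 to 1952 against 1765. When 1 library was left out, these ranges were 5810 to 6461, 5523 to 6383, 840 to 890 and 1673 to 1952. Upper-quartile scaling, which shifted all values by -0.054 on the log2 scale, gave 5577 genes higher and 6762 lower. The labels state no pairing of libraries across groups. Deviations from the group means were correlated between DMSO and 0.5 µM libraries. For libraries of the same number the correlations were 0.123, 0.0127 and 0.0239 for replicates 1, 2 and 3. For different numbers they ranged from -0.120 to 0.0733. With 3 libraries a group these values cannot decide whether the libraries were paired. With the replicate number as a block the counts were 6195, 6134, 846 and 1776. For the gene lists, 193 of 1240 medians under the alternatives moved by at least the SD between libraries of a group. Of 243 named genes, 235 kept their direction and their side of the threshold under every alternative that gave a value, and 10 of the 243 had no value on FPKM values or with the minimum of 50 normalized counts. INSM1, at 0.0031 on the log2 scale, was -0.0377 on FPKM values, -0.0507 with upper-quartile scaling, -0.0154 without 0.5 µM replicate 3 and again -0.0154 without the 3 libraries that held H19, and from -0.0313 to 0.0559 when 1 library was left out, with -0.005 and -0.0004 without DMSO replicates 2 and 3. Library weights called it higher at 0.0701. H19, at -1.24, was 2.85 with DESeq2 and with edgeR, and ranged from -4.08 to 0.72 when 1 library was left out, the ends being without 0.5 µM replicates 3 and 1. CDKN1A passed the test, as higher, without 0.5 µM replicate 2 (adjusted p = 0.0149) and with library weights, and H2AFY and REST missed it without the 3 libraries that held H19 (adjusted p = 0.062 and 0.0547). The cause was not tested for any of these.

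The mitochondrial-encoded genes of oxidative phosphorylation had 1 member higher when DMSO replicate 1 or 0.5 µM replicate 1 or 3 was left out. Cytosolic ribosomal proteins had 3 higher without DMSO replicate 2. In several lists the balance of higher and lower members, or the sign of the median, changed under at least 1 alternative. These were Mediator and RNA polymerase II, the MYC network, oxidative phosphorylation (nuclear and mitochondrial), the BCL2 family and caspases. Receptor tyrosine kinases, NRF2 and glutathione, telomerase, hypoxia genes and long intergenic RNAs were the others. Caspases, with 9 higher and 7 lower, had 7 and 8 on FPKM values. Depth limits the genes of low counts: of 1758 genes with a mean under 50 normalized counts 47.6% were called, with a median SE of 0.30 on the log2 scale, against 76.5% and 0.05 for 9264 genes with a mean of at least 1000. With 3 libraries a group, the smallest two-sided exact permutation p for a single gene would be 0.1, and none is given.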
